A study of Mus musculus with 8 samples.

Results

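Desmosomes are described here through 10 genes, the desmogleins Dsg1a, Dsg2 and Dsg3, the desmocollins Dsc2 and Dsc3, the plaque proteins Dsp, Jup, Pkp1 and Pkp3, and the membrane protein Perp. They were taken by symbol from the 23433 genes counted in 8 RNA-seq libraries of newborn mouse skin (postnatal day 0.5, mixed strain background), and all 10 passed the filter on low counts that left 14176 genes. The libraries came from 4 pups, each giving 1 library of hair germ, the early bud of the hair follicle, and 1 of interfollicular epidermis (IFE), the epithelium between follicles. Transgenic pups 4 and 6 had both parts of an inducible system. K14rtTA places a transactivator under the keratin 14 promoter, and pTRE2-200bcl answers to it with miR-200 when doxycycline is given. Control pup 3 carried K14rtTA and control pup 5 carried pTRE2-200bcl, so neither held both transgenes and the controls were not of 1 genotype. All pups were exposed to doxycycline through the chow of their dams, and all cells had been sorted as positive for K14RFP, a red fluorescent reporter, and high for alpha6 integrin, with P-cadherin high in the hair germ sort and low in the IFE sort. Each group therefore held 2 pups. The title of the series places the miR-200 family in the control of cell adhesion and polarity during hair follicle development, and the desmosome is one of the adhesive junctions of these cells.

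Desmosomes are the spot-like junctions that hold keratinocytes together. The extracellular parts of desmogleins and desmocollins meet between neighbouring cells, plakoglobin (Jup) and plakophilins bind their tails inside the cell, and desmoplakin (Dsp) ties this plaque to keratin filaments. In skin the isoforms are layered, with Dsg3 and Dsc3 strongest in the basal layer and Dsg1 and Dsc1 strongest above it, and mice without Perp develop blisters.

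The transgene feature, miR200primary, separated the groups in every library. It stood at 526 and 797 TMM-scaled CPM (counts scaled to a common library size) in transgenic hair germ pups 4 and 6, against 0.176 and 1.39 CPM in control hair germ pups 3 and 5. In IFE it stood at 607 and 714 CPM in transgenic pups, against 3.83 and 2.63 CPM in control pups. Zeb2, a known target that miR-200 represses, was higher in transgenic IFE, at 295 and 169 CPM against 14.1 and 3.14 CPM in control IFE (log2 fold change 4.90, adjusted p = 0.000299). Zeb1, another such target, was not called (2.53, adjusted p = 0.0944). Libraries held 7109871 to 14039583 counts in genes. The ribosomal RNA precursor Rn45s made up 29.0% of them in transgenic IFE pup 4 and 30.6% in control IFE pup 3, against 3.56% to 13.0% elsewhere. Cdh3, the P-cadherin gene of the sort, had 421 and 576 CPM in hair germ against 281 and 309 CPM in IFE of transgenic pups, but overlapped in control pups, at 353 and 436 CPM in hair germ against 293 and 386 CPM in IFE (0.22, adjusted p = 0.804). With Lhx2, Shh, Sox9 and Edar it summed to 771 to 1112 CPM in hair germ against 435 to 472 CPM in IFE of transgenic pups, and to 736 to 837 CPM in hair germ against 445 to 624 CPM in IFE of control pups. Markers of other cell types moved with genotype. The summed CPM of 7 myeloid markers was 1769 to 2351 in transgenic IFE against 73.3 to 143 in control IFE, with all 7 higher by the test below, and 157 to 253 in transgenic hair germ against 43.1 to 87.8 in control hair germ, with 3 of 7 higher. The 6 melanocyte markers summed to 79.7 to 86.1 CPM in transgenic IFE against 5.40 to 6.11 CPM in control IFE, where Tyrp1 and Mlana were at 0, and 4 of the 6 were higher. In hair germ they summed to 104 to 152 CPM in transgenic pups against 15.7 to 16.3 CPM in control pups, and 3 (Dct, Pmel and Kit) were higher. The 5 basal keratinocyte markers (Krt5, Krt14, Itga6, Itgb4 and Col17a1) summed to 14978 to 15184 CPM in transgenic IFE against 30221 to 32127 CPM in control IFE, and 3 of them (Krt14, Itgb4 and Col17a1) fell. In hair germ they summed to 15219 to 18484 CPM in transgenic pups against 23009 to 26865 CPM in control pups, all 5 without overlap and none called. Of all genes, 16.9% were lower without overlap in transgenic hair germ. The test called 6.34% of all genes in IFE and 0.952% in hair germ, in either direction. In these bulk libraries, fewer cells of a type and less RNA per cell cannot be told apart.

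As a sum, the desmosome genes were plentiful in all 8 libraries. Dsp alone had 3872 to 6857 CPM, whereas Dsc2 had 0 to 43.7 CPM. The 10 together took 8202 to 8587 CPM in transgenic IFE, 13248 to 13973 CPM in control IFE, 9074 to 11065 CPM in transgenic hair germ and 11433 to 11436 CPM in control hair germ. Levels of different genes are compared per kb of exon. On that scale Dsp and Perp led in every group. Dsp stood at 515 ± 115 CPM per kb and Perp at 408 ± 75.5 in transgenic hair germ, against 608 ± 36.0 for Dsp and 595 ± 73.4 for Perp in control hair germ (SD, n = 2 pups per group here and below). In IFE Dsp stood at 405 ± 5.81 and Perp at 336 ± 3.18 CPM per kb in transgenic pups, against 630.4 ± 112 for Dsp and 717 ± 44.9 for Perp in control pups. Perp was therefore the first of the 10 in control IFE and the second in the other 3 groups, and the ranges of the leading pair touched in all but transgenic IFE.

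Below them the order was Dsc3, Pkp1, Jup and Pkp3 in all 4 groups, followed by Dsg2 and Dsg3 in either order, then Dsg1a, and last Dsc2. In control IFE, Dsc3, the basal desmocollin, had 436 ± 65.5 CPM per kb and Pkp1, the plakophilin that strengthens keratinocyte adhesion, had 322 ± 89.1. Dsc2, the desmocollin shared with simple epithelia and heart, had 7.03 ± 1.77 CPM per kb in transgenic IFE and 2.65 ± 0.206 in control IFE. The ranges of Jup and Pkp3 touched in both control groups and in neither transgenic group, those of Dsg2 and Dsg3 touched in transgenic IFE and control hair germ, and those of Dsg2 and Dsg1a touched in control IFE.

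**Figure D1:**
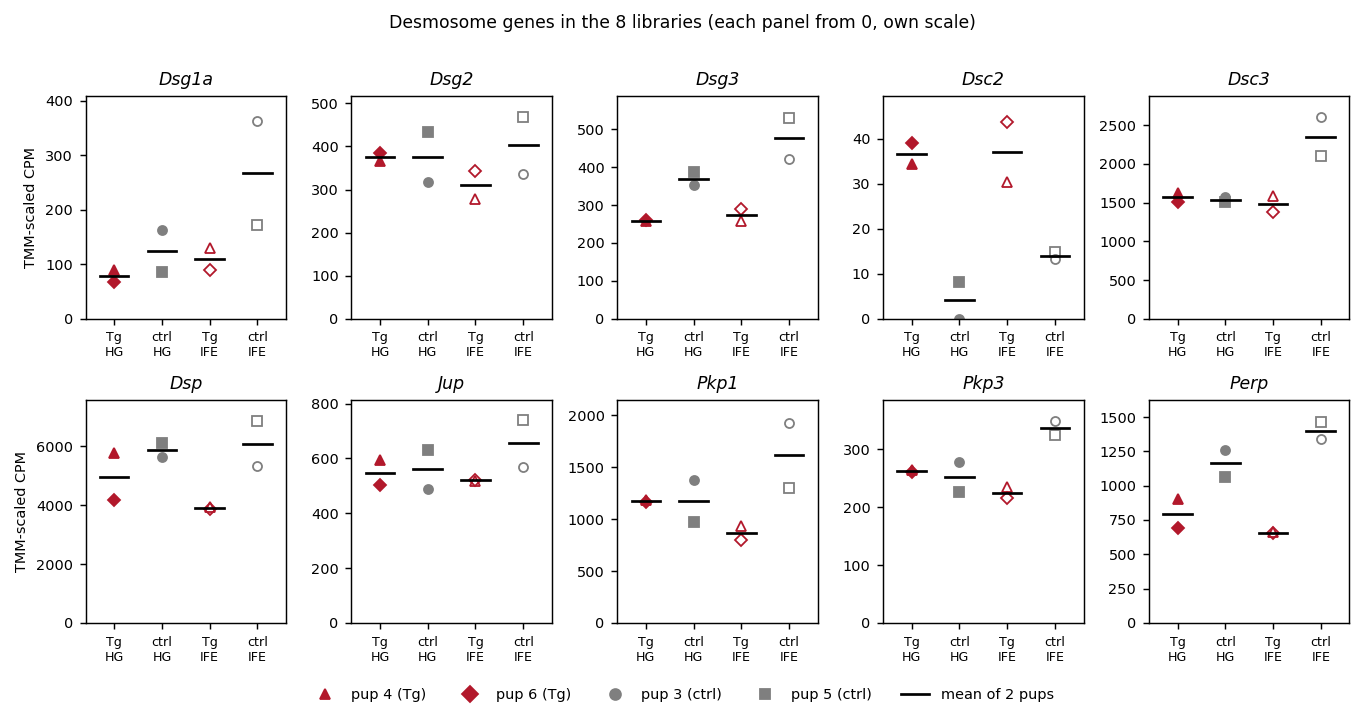
TMM-scaled CPM of the 10 desmosome genes in each of the 8 libraries, with each panel drawn from 0 on its own scale and a line at the mean of 2 pups; triangles and diamonds are transgenic pups 4 and 6, circles and squares control pups 3 and 5, filled for hair germ and open for IFE. In IFE the transgenic points lie below the control points in 8 panels, overlap them in that of Dsg2 and lie above them in that of Dsc2.

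The question of the transgenic contrast in IFE was which desmosome genes differed in epidermal cells that carried the miR-200 system. Perp and Dsg3 fell and no member rose at an adjusted p under 0.05 (edgeR quasi-likelihood test, Benjamini-Hochberg over 14176 genes). Across all genes 1.35% fell by this rule and 6.34% were called in either direction, and 7 of the 10 members had an unadjusted p under 0.05, against 17.3% of all genes. The fold changes of 9 members were below 0 with TMM, RLE, library-size and Rn45s-free scaling and those of 2 with scaling to Krt5, Krt14 and Cdh1, where 50.6% of all genes were below 0 with TMM. The members' median was -0.65 against -0.01 over all genes. The libraries of the groups did not overlap for 8 members that were lower and 1 that was higher in transgenic IFE, against 25% and 27.9% of all genes. The myeloid, melanocyte and basal keratinocyte markers given above moved with genotype in the same libraries, and their part in these differences was not tested.

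Perp is a tetraspan membrane protein of desmosomes and a transcriptional target of p63 and p53. It had 661 and 652 CPM in transgenic IFE pups 4 and 6, against 1338 and 1462 CPM in control IFE pups 3 and 5. Both transgenic libraries were below both control libraries, and the pups of each group lay close together. The log2 fold change was -1.09 (SE 0.21, adjusted p = 0.00971). The SE here and below is the fold change over the square root of the test's F statistic, not the spread between pups. The fall remained past the threshold in 13 of 19 alternative analyses, with an adjusted p of 8.04e-06 to 0.875 over all of them. It was not called without transgenic IFE pup 4 (-1.09, adjusted p = 0.104), without transgenic IFE pup 6 (-1.06, adjusted p = 0.102) or without both libraries rich in Rn45s (-1.14, adjusted p = 0.133). It was not called either with library-size scaling (-0.94, adjusted p = 0.197) or with scaling to Krt5, Krt14 and Cdh1 (-0.05, adjusted p = 0.875).

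Dsg3 is the desmoglein of the basal layer and the autoantigen of pemphigus vulgaris. It had 259 and 289 CPM in transgenic IFE, against 421 and 531 CPM in control IFE. The groups did not overlap, and the log2 fold change was -0.80 (SE 0.20, adjusted p = 0.0328), which turned to 0.25 (adjusted p = 0.419) when libraries were scaled to Krt5, Krt14 and Cdh1. This call was the less stable of the pair, being kept in 7 of 19 alternatives. Leaving out control IFE pup 5 gave -0.61 (adjusted p = 0.25), leaving out both libraries rich in Rn45s gave -0.86 (adjusted p = 0.390), and leaving out either transgenic library of IFE or of hair germ also ended it, with adjusted p of 0.0816 to 0.412.

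The other desmogleins did not pass. Dsg1a, of the suprabasal type of desmoglein, had 129.6 and 90.2 CPM in transgenic IFE, against 364 and 172 CPM in control IFE (log2 fold change -1.29, SE 0.37, adjusted p = 0.0684). Control pup 3 stood far above the other 3 libraries, and without it the estimate was -0.59 (adjusted p = 0.573). Mice carry 3 near-identical copies of this gene, Dsg1a, Dsg1b and Dsg1c. Reads without a unique alignment were set apart from the gene counts in a summary line. They made up 12.5% to 46.5% of recorded reads per library, with 46.5% in transgenic IFE pup 4 and 41.8% in control IFE pup 3. How many of them came from the Dsg1 copies is not given, and Dsg1a may be undercounted. The level of Dsg1a is therefore uncertain. Dsg2, the most widely expressed desmoglein, had 278 and 342 CPM in transgenic IFE, against 335 and 469 CPM in control IFE. Its groups overlapped (log2 fold change -0.38, adjusted p = 0.489).

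The desmocollins differed in sign with TMM, whereas scaling to Krt5, Krt14 and Cdh1 set both above 0 (Dsc2 2.45, Dsc3 0.37). Dsc3 had 1592 and 1382 CPM in transgenic IFE, against 2604 and 2104 CPM in control IFE, with no overlap (log2 fold change -0.66, SE 0.22, adjusted p = 0.109). Dsc2 had 30.5 and 43.7 CPM in transgenic IFE, against 13.2 and 14.8 CPM in control IFE (log2 fold change 1.40, SE 0.69, adjusted p = 0.340). Both transgenic libraries held more Dsc2 than both controls, on counts of 226 and 578 against 76 and 174. Neither desmocollin passed the threshold.

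Of the plaque genes, Pkp1 came nearest to it. Pkp1 had 930.1 and 795 CPM in transgenic IFE, against 1932 and 1299 CPM in control IFE (log2 fold change -0.90, SE 0.25, adjusted p = 0.0563), and without control IFE pup 3 the estimate was -0.53 (adjusted p = 0.349). Pkp3, a plakophilin found in all epidermal layers, had 235.5 and 215 CPM in transgenic IFE, against 349.8 and 324 CPM in control IFE (log2 fold change -0.58, SE 0.19, adjusted p = 0.115). In both plakophilins the transgenic libraries were the lower, without overlap. Dsp, the plakin that anchors keratin, had 3951 and 3872 CPM in transgenic IFE, against 5322 and 6857 CPM in control IFE (log2 fold change -0.64, SE 0.28, adjusted p = 0.264). Jup, which serves in adherens junctions as well, had 519 and 519.9 CPM in transgenic IFE, against 569 and 739.6 CPM in control IFE (log2 fold change -0.33, adjusted p = 0.518). These groups too did not overlap, and neither gene passed.

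Other settings moved the count of called members in IFE between 0 and 5. DESeq2 called 5 members lower (Perp, Dsg3, Dsg1a, Dsc3 and Pkp1) among 1084 genes called in all, and limma-voom called 4 of them, all but Dsg1a, among 661 genes, where edgeR called 899. Scaling by library size alone called 0 members among 909 genes. Without control hair germ pup 3, or without control hair germ pup 5, the spread shared by all groups was estimated from other libraries and 5 members were called, Dsc2 higher and Perp, Dsg3, Dsg1a and Pkp1 lower, among 1208 and 1209 genes called in all.

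**Figure D2:**
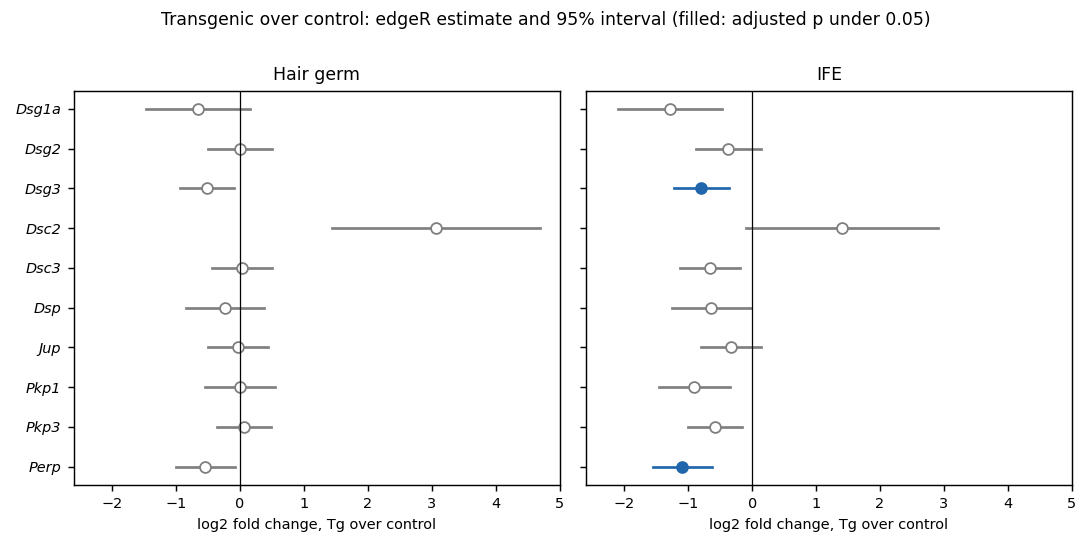
Log2 fold change of transgenic over control for each desmosome gene in hair germ (left) and IFE (right), as the edgeR estimate with its 95% interval; filled points have an adjusted p under 0.05. With TMM scaling 9 estimates lie below 0 in IFE, against 2 when scaled to Krt5, Krt14 and Cdh1, and Dsg3 (-0.80) and Perp (-1.09) are filled; in hair germ none is filled and Dsc2 (3.07) lies apart with the widest interval.

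In hair germ no member passed the threshold in the same contrast, against 0.952% of all genes. The melanocyte, myeloid and basal keratinocyte markers moved with genotype here too, and their part was not tested. By edgeR 3 members, Dsc2, Dsg3 and Perp, had an unadjusted p under 0.05, against 17.1% of all genes, and DESeq2 and limma-voom also called 0. The members' median was -0.02, with 7 below 0, and that of all genes 0.04. With scaling to Krt5, Krt14 and Cdh1 the members' median was 0.51, with 1 below 0, and that of all genes 0.59. The groups did not overlap for 2 members that were lower and 1 that was higher in transgenic hair germ, against 16.9% and 22.4% of all genes.

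Dsc2 showed the widest difference. It had 34.3 and 39.0 CPM in transgenic hair germ pups 4 and 6, against 0 and 8.17 CPM in control hair germ pups 3 and 5. The counts were 390 and 322 against 0 and 123, and a count of 0 in control pup 3 allows up to 0.264 CPM (3 counts, covering counting error only). Both transgenic libraries were above both controls, and the controls differed from each other by a wide margin. The log2 fold change was 3.07 (SE 0.75, adjusted p = 0.0764), and the 95% interval ran from 1.44 to 4.70. Without control hair germ pup 3 it was 2.11 (adjusted p = 0.0412), and without control hair germ pup 5 it had only the library at 0 to compare with (adjusted p = 0.00184). Over the 19 alternatives Dsc2 was called in 5, with an adjusted p of 0.00184 to 0.484.

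Dsg3 and Perp lay on the same side as in IFE with TMM, while scaling to Krt5, Krt14 and Cdh1 set Dsg3 at 0.03 and Perp at 0.00 in hair germ. Dsg3 had 257 and 259.8 CPM in transgenic hair germ, against 352 and 388 CPM in control hair germ (-0.52 on the log2 scale, SE 0.20, adjusted p = 0.205). Perp had 901 and 693 CPM in transgenic hair germ, against 1263 and 1061 CPM in control hair germ (-0.54, SE 0.21, adjusted p = 0.219). In both genes the groups did not overlap and the difference was not called. Over the 2 populations, every transgenic library was below every control library for Dsg3 and Perp, as for 4.77% of all genes, and above every control library for Dsc2, as for 6.05% of all genes.

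The remaining 7 members overlapped between genotypes in hair germ. Dsg1a had 88.7 and 68.0 CPM in transgenic hair germ, against 163 and 85.7 CPM in control hair germ (log2 fold change -0.66, adjusted p = 0.395), and the 2 controls differed more from each other than the group means did. Dsp had 5758 and 4189.5 CPM in transgenic hair germ, against 5628 and 6120.1 CPM in control hair germ (-0.24, adjusted p = 0.71). Dsc3, Pkp1, Pkp3, Jup and Dsg2 had log2 fold changes of 0.03, -0.01, 0.06, -0.03 and 0.00. Their 95% intervals reached from -0.55 to 0.54 at the widest (Pkp1) and from -0.36 to 0.48 at the narrowest (Pkp3). Estimates of about this size, those of Dsg3 and Perp in hair germ, were not called with 2 pups per group.

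The difference of the transgenic effect, hair germ minus IFE, was tested for each member as an interaction, and 0 were called, against 0.134% of all genes. By edgeR 3 members had an unadjusted p under 0.05, Pkp1 (0.90, SE 0.35, adjusted p = 0.532), Dsc3 (0.69, SE 0.31, adjusted p = 0.596) and Pkp3 (0.64, SE 0.27, adjusted p = 0.574), against 8.11% of all genes, and DESeq2 and limma-voom also called 0. All 10 differences were above 0, where 45.6% of all genes were below 0, with a median of 0.59 against 0.06 over all genes. With scaling to Krt5, Krt14 and Cdh1, 4 were below 0. With TMM the differences of the 5 basal keratinocyte markers, the 5 suprabasal markers and the 7 desmosome-linked keratins were all above 0 too. Those of the 7 myeloid markers were all below 0. For Pkp1 the means were 1173 ± 15.9 CPM in transgenic hair germ and 1178 ± 285 in control hair germ, beside 863 ± 95.4 CPM in transgenic IFE and 1615 ± 448 in control IFE. For Perp the difference was 0.55 (SE 0.30, adjusted p = 0.706) and for Dsg3 0.28 (SE 0.28, adjusted p = 0.913). The fall of Perp or Dsg3 was therefore not shown to differ between the populations.

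Hair germ was also compared with IFE within each genotype. In control pups all 10 estimates were below 0 (6 with library-size or keratin scaling), where 53.0% of all genes were, with a median of -0.39. None was called, against 0.00705% of all genes, and 3 had an unadjusted p under 0.05 (8.47% of all genes), with 0 called by DESeq2 and limma-voom too. Dsg1a had 163 and 85.7 CPM in hair germ, against 364 and 172 CPM in IFE of control pups 3 and 5 (log2 fold change -1.11, SE 0.37, adjusted p = 0.501). In each control pup its hair germ library held less Dsg1a than its IFE library. Dsc3 had 1568 and 1503 CPM in hair germ, against 2604 and 2104 CPM in IFE of the same pups (-0.62, SE 0.22, adjusted p = 0.522).

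In transgenic pups 3 of 10 estimates were below 0 (1 with library-size and 5 with keratin scaling) and 0 were called, against 4.62% of all genes, with a median of 0.15 and 0 called by DESeq2 and limma-voom. None had an unadjusted p under 0.05 by edgeR, against 18.5% of all genes. The populations did not overlap for 5 members that were higher in hair germ (Dsg2, Dsp, Pkp1, Pkp3 and Perp) and 1 that was lower (Dsg1a), against 26.4% and 28.9% of all genes. Dsp had 5758 and 4189.5 CPM in hair germ, against 3951 and 3872 CPM in IFE of transgenic pups (0.35, adjusted p = 0.575), and Pkp1 had 1185 and 1162 CPM in hair germ, against 930.1 and 795 CPM in IFE (0.44, adjusted p = 0.390). The hair germ libraries were above the IFE libraries for both genes. The 2 contrasts of populations share no library with each other, but each shares its libraries with the transgenic contrasts.

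Averaged over the genotypes, 0 members were called between hair germ and IFE without the pairing of libraries by pup, against 3.39% of all genes. Dsg1a was the only member with an unadjusted p under 0.05 (-0.79, SE 0.26, adjusted p = 0.126), as 18.8% of all genes had. With the pup as a block, which the shared animals allow, Dsg1a was called lower in hair germ (-0.78, SE 0.12, adjusted p = 0.00682), among 826 genes called in all, against 481 without the block. It was lower in hair germ in all 4 pups, at 88.7 against 129.6 CPM in pup 4, 68.0 against 90.2 CPM in pup 6, 163 against 364 CPM in pup 3 and 85.7 against 172 CPM in pup 5. Of 5 suprabasal markers (Krt1, Krt10, Krtdap, Sbsn and Lor), Krt1 and Krt10 made up most of the summed level, which was 1026 to 1299 CPM in transgenic hair germ against 1765 to 2592 CPM in transgenic IFE, and 1007 to 1685 CPM in control hair germ against 1696 to 4422 CPM in control IFE. Averaged over the genotypes, Krt1 had -1.08 (adjusted p = 0.0548) and Krt10 had -1.13 (adjusted p = 0.0784), while Krtdap (-0.20), Sbsn (-0.30) and Lor (0.50) lay nearer to 0. Their part in the Dsg1a difference was not tested.

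**Figure D3:**
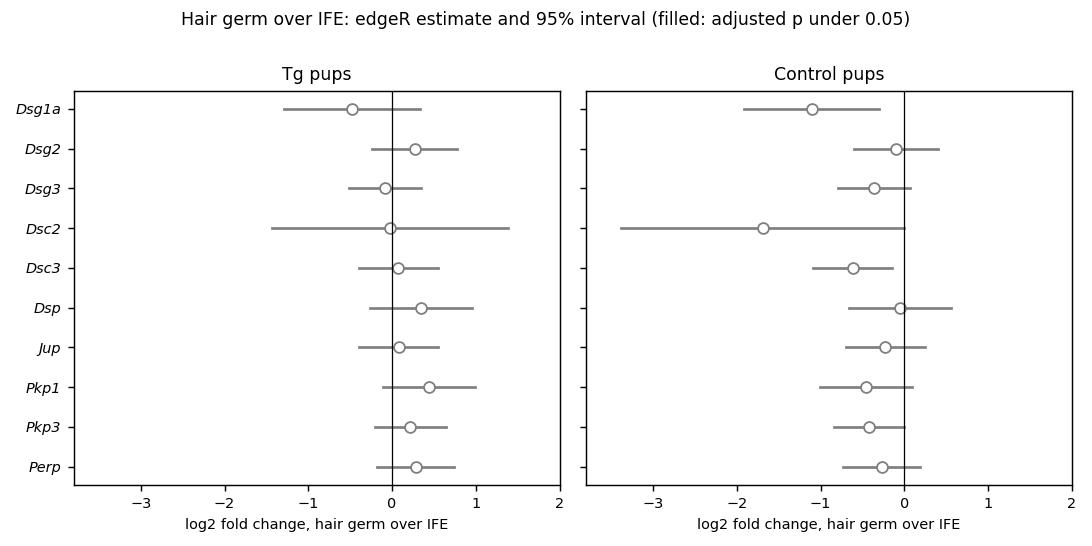
Log2 fold change of hair germ over IFE for each desmosome gene in transgenic pups (left) and control pups (right), as the edgeR estimate with its 95% interval; no point has an adjusted p under 0.05. With TMM scaling all 10 estimates lie below 0 in control pups (6 with library-size or keratin scaling), and 3 of 10 (Dsg1a, Dsg3 and Dsc2) in transgenic pups.

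The mixture of isoforms within a family differed most clearly among the desmocollins. As a share of the summed CPM per kb of Dsc2 and Dsc3, Dsc2 made up 2.12% and 2.57% in transgenic hair germ, against 0% and 0.554% in control hair germ. In IFE it made up 1.92% and 3.13% in transgenic pups, against 0.518% and 0.714% in control pups. Dsc2 was the minor isoform throughout, and in each transgenic library its share exceeded that of every control library. Among the 3 desmogleins, Dsg2 made up 45.7% and 48.6% in transgenic hair germ, against 32.6% and 42.6% in control hair germ, and 36.0% and 41.9% in transgenic IFE, against 24.6% and 34.8% in control IFE. In each population the transgenic shares of Dsg2 were the higher, without overlap. Pkp1 made up 72.7% to 79.9% of the plakophilin pair over the 8 libraries and Dsg3 made up 36.6% to 46.6% of the desmogleins. Dsg1a made up 24.4% and 16.1% of the desmogleins in transgenic IFE, against 38.8% and 18.6% in control IFE, so control pup 3 was the outlying library for that share.

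The members other than Dsc2 tended to vary together. Over the 8 libraries the 36 pairs without Dsc2 had Pearson r from -0.21 to 0.93 (median 0.64, on log2 CPM), the highest being Pkp1 with Pkp3 (0.93) and Dsc3 with Pkp3 (0.92). The 9 pairs with Dsc2 had r from -0.56 to 0.20 (median -0.33), the lowest being Dsc2 with Perp. The libraries share their scaling and their groups, so these values are descriptions. The tested genes outside the 10 whose pattern was most like the mean profile of the members were Trap1 (r = 0.964), Fam83b (0.963), Fam83h (0.962), Cdca8 (0.956) and Gstm2 (0.947), each over 8 libraries. Among the genes nearest to single members, Krt5 was the third for Perp (r = 0.983) and Krt14 the fourth for Dsg3 (r = 0.973).

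That likeness was followed by setting each member against the summed counts of Krt5 and Krt14, the basal keratin pair to which desmosomes attach, a ratio chosen after the values were seen. Per 100 counts of these keratins, Perp had 6.24 and 5.93 counts in transgenic hair germ, against 5.79 and 5.99 in control hair germ. In IFE Perp had 5.68 and 5.57 counts per 100 in transgenic pups, against 5.54 and 5.74 in control pups. The highest library was 1.13 times the lowest, and none of the 11369 tested genes with counts in every library, Krt5 and Krt14 apart, had a smaller ratio. Perp and these keratins thus kept nearly 1 ratio across the libraries. The keratins were taken up for their likeness to Perp and Dsg3 in these same libraries, so small ratios for Perp and Dsg3 restate that likeness. Scaling to Krt5, Krt14 and Cdh1 uses the same keratins. With it the log2 fold change of Perp in IFE was -0.05 (adjusted p = 0.875).

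The other members had ratios to these keratins that varied more than that of Perp. Dsg3 had 1.78 and 2.22 counts per 100 keratin counts in transgenic hair germ, against 1.61 and 2.19 in control hair germ, and 2.23 and 2.47 in transgenic IFE, against 1.74 and 2.08 in control IFE. Its highest library was 1.53 times its lowest, a smaller ratio than in all but 41 of these genes. Jup had 4.11 and 4.31 counts per 100 in transgenic hair germ, against 2.24 and 3.56 in control hair germ, and 4.46 and 4.44 in transgenic IFE, against 2.36 and 2.90 in control IFE. Relative to the keratins, Jup, Dsc2, Dsc3 and Pkp3 were higher in each transgenic library than in every control library, as were 35.7% of all genes, so 4 of 10 is near the share of all genes. Scaling to Krt5, Krt14 and Cdh1 set the median of all genes at 1.03 in IFE and 0.59 in hair germ, and the members' median in IFE at 0.39, below that of all genes.

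**Figure D4:**
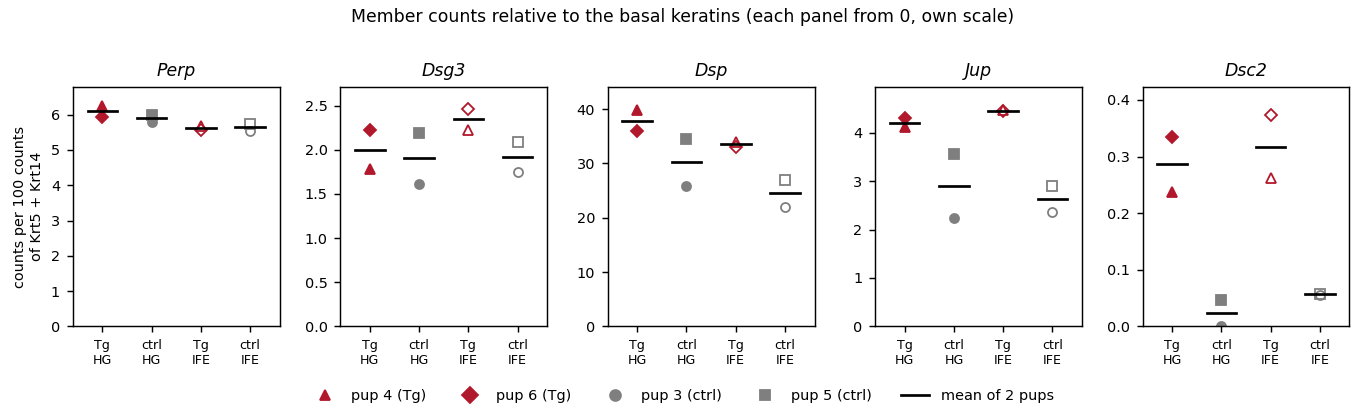
Counts of Perp, Dsg3, Dsp, Jup and Dsc2 per 100 counts of Krt5 and Krt14 in each of the 8 libraries, each panel from 0 on its own scale with a line at the mean of 2 pups; triangles and diamonds are transgenic pups 4 and 6, circles and squares control pups 3 and 5, filled for hair germ and open for IFE. Perp stays between 5.54 and 6.24 in all libraries, while the transgenic points of Jup and Dsc2 lie above all their control points.

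Because the transgene is a miR-200 construct, the mature miRNAs and the members' 3′ untranslated regions (UTRs) were read for seed matches. The miR-200 family holds 2 seed groups (bases 2 to 8, in capitals, from RefSeq, build GRCm38.p6). They are shown because the 2 seeds pair with different sites in messenger RNA.
mmu-miR-200a-3p: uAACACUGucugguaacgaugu
mmu-miR-141-3p: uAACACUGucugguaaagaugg
mmu-miR-200b-3p: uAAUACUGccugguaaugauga
mmu-miR-200c-3p: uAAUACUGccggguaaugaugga
mmu-miR-429-3p: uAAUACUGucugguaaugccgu

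The complement of the first seed is CAGTGTT and that of the other is CAGTATT, searched on the sense strand of 1 annotated transcript per gene (GENCODE vM21, GRCm38). Perp, which fell in IFE, was the only member with 2 matches. Both were to the seed of miR-200a and miR-141, in the last of its 3 exons, at positions 524 to 530 and 864 to 870 of a UTR of 1197 bases. Their sequences, with the match in capitals, are those of the candidate sites.
Perp, chr10:18856386-18856407, plus strand: tgagaatttttagtCAGTGTTt
Perp, chr10:18856726-18856747, plus strand: aggagaagacatggCAGTGTTt

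Of 2713 UTRs within 20% of that length, 15.6% held at least 1 such match and 1.55% held 2 or more. Dsg1a had 1 match to CAGTATT (found in 23.7% of UTRs of like length) and Dsc2, whose transgenic libraries lay above the controls, had 1 match to CAGTGTT (21.2%). The other 7 members, Dsg3 among them, held neither motif in the UTRs read. Over the 20971 genes with a UTR, 12.6% held CAGTATT and 16.1% held CAGTGTT. These matches are descriptions of sequence, and binding was not measured.

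The 5 cadherin members lie in 1 cluster of chromosome 18 (GRCm38, 19960930 to 20604521), a span of 644 kb with 9 protein-coding genes, all of them desmocollins or desmogleins. The neighbours Dsc2 (20030633 to 20059554, minus strand) and Dsc3 (19960930 to 20002351, minus strand) had log2 fold changes of 1.40 and -0.66 in IFE. Dsg3 (20510274 to 20547459, plus strand) and Dsg2 (20558074 to 20604521, plus strand), also neighbours, had -0.80 and -0.38. The plaque genes and Perp lie apart, Dsp on chromosome 13 (38151294 to 38198577), Jup on chromosome 11 (100368958 to 100397763), Pkp1 on chromosome 1 (135871395 to 135919207), Pkp3 on chromosome 7 (141078218 to 141090510) and Perp on chromosome 10 (18845020 to 18857073).

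Of 10 further desmosome genes (Dsg1b, Dsg1c, Dsg4, Dsc1, Pkp2, Pkp4, Ppl, Evpl, Cdsn and Kazn), 8 passed the filter and 0 were called by edgeR in either transgenic contrast. In IFE 4 of the 8 had an unadjusted p under 0.05, against 17.3% of all genes. DESeq2 and limma-voom called 0 there, and the median of the 8 was -0.10. Dsc1, the suprabasal desmocollin and the next gene beside Dsc2, had 67.3 and 52.7 CPM in transgenic IFE, against 34.1 and 19.0 CPM in control IFE, with no overlap (log2 fold change 1.20, adjusted p = 0.172). Both minor desmocollins of these libraries were thus the higher in transgenic IFE while Dsc3 was the lower with TMM. The plakin envoplakin (Evpl) had -0.68 (adjusted p = 0.134) and its partner periplakin (Ppl) -0.60 (adjusted p = 0.280), at 0.36 and 0.45 with keratin scaling. In hair germ 2 of the 8, Dsc1 and Kazn, had an unadjusted p under 0.05, against 17.1% of all genes, and the median of the 8 was 0.34. Dsc1 had 30.8 and 22.7 CPM in transgenic hair germ, against 6.33 and 18.2 CPM in control hair germ, without overlap (1.11, adjusted p = 0.248). Kazn (kazrin, a periplakin-binding protein) had 39.0 and 37.2 CPM in transgenic pups, against 17.8 and 17.7 CPM in control pups (1.10, adjusted p = 0.100) and was the gene that DESeq2 called, while limma-voom called 0. Dsg4, the desmoglein of the hair shaft, was at 0 in all 8 libraries.

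Among 7 keratins that desmosomes anchor, 2 fell in transgenic IFE and 0 rose, where 1.35% of all genes fell. Krt15, a keratin of basal cells, had 422 and 413 CPM in transgenic IFE, against 1583 and 1749 CPM in control IFE (log2 fold change -2.00, adjusted p = 0.00281). Krt14 had 4684 and 5102 CPM in transgenic IFE, against 9082 and 11675 CPM in control IFE (-1.08, adjusted p = 0.0484), a call lost with RLE (adjusted p = 0.0526) and library-size scaling (adjusted p = 0.651). Krt5 had -1.09 (adjusted p = 0.0784) and was not called by edgeR, whereas DESeq2 and limma-voom called it beside Krt14 and Krt15. The estimate for Krt15 was lower than that of any member, and with keratin scaling it was -0.95 (adjusted p = 0.0251). In hair germ 0 of the 7 were called by edgeR and limma-voom. By edgeR 4 had an unadjusted p under 0.05, against 17.1% of all genes, and DESeq2 called 3 (Krt14 and Krt15 lower, Krt6a higher). Between the populations, Krt17, a keratin of the hair germ, was higher in hair germ of transgenic pups (1.06, adjusted p = 0.0255). That call was lost with library-size (adjusted p = 0.112) and keratin scaling (adjusted p = 0.107). In control pups Krt17 had 1606 and 1821 CPM in hair germ, against 999 and 1355 CPM in IFE, and was not called. Averaged over the genotypes it was called higher in hair germ (0.80, adjusted p = 0.0249), against 3.39% of all genes called.

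Of 12 genes that regulate desmosomes or cleave their cadherins, 2 fell in transgenic IFE and 0 rose, against 1.35% of all genes that fell. Trp63, the transcription factor p63 that controls Perp and other adhesion genes, had 598 and 651 CPM in transgenic IFE, against 1108 and 1089 CPM in control IFE (log2 fold change -0.81, adjusted p = 0.0356), and its estimate was -0.64 (adjusted p = 0.575) with library-size and 0.23 (adjusted p = 0.453) with keratin scaling. Egfr, the growth factor receptor whose signalling loosens desmosomes, had 114 and 107 CPM in transgenic IFE, against 280 and 320 CPM in control IFE (-1.44, adjusted p = 0.00124), and -0.40 (adjusted p = 0.188) with keratin scaling. In hair germ Trp63 had 1339 and 1093 CPM in transgenic pups, against 1231 and 1075 CPM in control pups (0.08, adjusted p = 0.892), so its groups overlapped there. None of the 12 was called in the difference of the transgenic effect (lowest adjusted p = 0.399), against 0.134% of all genes. The fall of Trp63 was therefore not shown to differ between the populations. Within transgenic pups Trp63 was higher in hair germ than in IFE (0.96, adjusted p = 0.0202), a call lost with library-size (adjusted p = 0.0990) and keratin scaling (adjusted p = 0.0925). Adam17, a protease that sheds Dsg2, was lower (-0.99, adjusted p = 0.0236), which library-size scaling did not call (adjusted p = 0.218). In that contrast 4.62% of all genes were called. Neither gene was called between the populations of control pups, where Adam17 had -0.57 (adjusted p = 0.562). Averaged over the genotypes, Adam17 was called lower in hair germ (-0.78, adjusted p = 0.0195), against 3.39% of all genes called.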

How the data were processed

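Total RNA of sorted cells, extracted with Trizol and prepared with the SMARTer stranded low-input kit per the labels' protocols, was counted per gene symbol. The deposited files hold raw read counts and a matrix of normalised signal, which the authors made from the counts by 1 constant per library (all 23406 shared names within 1%) and which served only to check the counts. TopHat, HTSeq and DESeq2 and build mm10 (GRCm38) are named per the submitters' processing notes; the sources used here give no versions, annotation or strand setting, so reads of a gene and of an antisense or overlapping gene cannot be told apart. The 5 summary lines per library (57.6% to 76.6% of recorded reads) were left out.

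Counts were scaled by TMM, filtered with filterByExpr and fitted as 4 group means over 8 libraries with edgeR 4.0.16 (glmQLFit with legacy set to FALSE, glmQLFTest, two-sided, R 4.3.3), with Benjamini-Hochberg adjustment over 14176 genes and a threshold of 0.05. The common biological coefficient of variation was 0.475. On simulated counts for transgenic over control in IFE (14176 genes), 20 of 100 genes changed 2-fold and 76 of 100 changed 4-fold were recovered. The changed genes were drawn only from those above a cut on average expression, and the simulated controls of a group shared their means. Alternatives were RLE, library-size, Rn45s-free and keratin scaling (to Krt5, Krt14 and Cdh1), no filter, the legacy fit, DESeq2 1.42.0, limma-voom (limma 3.58.1), libraries left out, the 4 compared libraries alone, and the pup as a block. Log2 CPM for correlations used a prior count of 2. Gene lengths, positions and UTRs came from GENCODE vM21 and miRNAs from RefSeq (GRCm38.p6).

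Pup numbers mark the same animal in hair germ and IFE per the labels; deviations from group means correlated at 0.117 in control and 0.0868 in transgenic pups over all tested genes, and at 0.394 and 0.191 over the 7365 genes whose mean log2 CPM was 4 or more. The genotype arms share no pup. Named genes are all 10 members, the members of each list that passed the threshold, and the 5 genes most like the mean profile. Krt5 as a neighbour of Perp, the keratin ratio, and the uncalled genes Dsc1, Evpl, Ppl and Kazn were chosen after values were seen. So were Krt8 and Krt18, from the list of Merkel markers. The members and lists were chosen with earlier results of these data known.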

Additional observations from a re-analysis of the deposited data

How the results depend on the processing

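Without any alternative, 2 desmosome genes were called in IFE between genotypes and 0 in each other comparison. In IFE the count was 0 with library-size scaling, without both libraries of pup 4 and without the 2 libraries richest in Rn45s, 1 with keratin scaling (Dsc2), no filter (Perp) and the legacy fit (Perp), 4 with limma-voom and 5 with DESeq2. Over all genes, the calls in IFE numbered 909 with library-size scaling, 5001 with keratin scaling, 867 with no filter and 541 with the legacy fit. They numbered 661 with limma-voom and 1084 with DESeq2. The 4 compared libraries alone gave 2 members, Perp and Dsc2 (adjusted p = 0.0240), among 1277 genes, with Dsg3 lost (adjusted p = 0.0590). Leaving out 1 library gave 0 to 5. Without a transgenic IFE library 0 were called, without a transgenic hair germ library 1 (Perp), without control hair germ pup 3 or 5 there were 5, without control IFE pup 3 the count was 2 (Dsg3 and Perp) and without control IFE pup 5 it was 3 (Dsg1a, Perp and Pkp1). In hair germ between genotypes the count was 1 with library-size scaling, with Rn45s removed and with keratin scaling, and 0 to 1 when 1 library was left out, Dsc2 each time. Leaving out 1 library gave 0 to 1 between populations in controls, between populations on average, and for the difference of effects, in each case Dsc2 without control hair germ pup 5. Over all genes, the calls in hair germ between genotypes numbered 316 with library-size scaling, 171 with Rn45s removed and 1096 with keratin scaling. With the pup as a replicate block, 1 member (Dsg1a) was called between populations on average, among 826 genes, and the block changed no other member's call. Dsg3 in IFE reversed to 0.25 (adjusted p = 0.419) with keratin scaling. The cause of these changes was not tested, and the fits that left libraries out also had fewer of them. Perp in IFE stayed below 0 in all 19 alternatives, at -1.14 to -0.05. Library-size scaling moved the median of all genes to 0.15 in IFE between genotypes, and to 0.26 in controls and 0.20 in transgenic pups between populations. The data held 2 pups per group, controls of different genotype and depths down to 7109871 counts. Changes near 2-fold were often missed on simulated counts, which held no difference between the genotypes of the controls.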

Other observations

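Krt8 and Krt18, keratins of simple epithelia and of Merkel cells, stood higher in transgenic libraries. They were picked from a list of 4 Merkel markers after values were seen. Their groups did not overlap in either population. Of all genes, 22.4% were higher without overlap in hair germ and 27.9% in IFE. Krt18 had 22.3 and 11.9 CPM in transgenic hair germ, against 0.615 and 3.59 CPM in control hair germ, and 13.5 and 23.7 CPM in transgenic IFE, against 1.04 and 0.509 CPM in control IFE, where it passed the threshold (adjusted p = 0.00565). Krt8 had 20.7 and 17.2 CPM in transgenic hair germ, against 7.12 and 0 CPM in control hair germ, and 7.55 and 11.7 CPM in transgenic IFE, against 0 and 2.21 CPM in control IFE, and was called in neither. Of the other markers in that list, Krt20 had log2 fold changes of 1.34 in hair germ and 1.52 in IFE (adjusted p = 0.464 and 0.852). Its groups overlapped in both populations. Atoh1, a defining transcription factor of Merkel cells, overlapped in hair germ and was at 0 in all IFE libraries. The part of Merkel cells was not tested. Dsc2, the desmocollin of simple epithelia, lay above the controls in the same transgenic libraries, and the part of other cell types in that difference was not tested. Relative to the keratins Krt5 and Krt14, Dsp had 39.9 and 35.9 counts per 100 in transgenic hair germ, against 25.8 and 34.5 in control hair germ, and 34.0 and 33.0 in transgenic IFE, against 22.0 and 26.9 in control IFE.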
